A study of Mus musculus with 12 samples.

Results

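Gene deserts are long stretches of the genome in which no gene is annotated. Here they are the intervals on chromosomes 1 to 19 of the mouse genome (mm9, NCBI build 37) that lie between neighbouring annotated genes of any type, are at least 500 kb long and hold no assembly gap over 50 kb. Each was trimmed by 20 kb at both ends. Of 25816 intervals between neighbouring genes, 452 reached the minimum length, and 444 of these passed the gap rule. After trimming the 444 deserts covered 351.5 Mb, or 14.7% of the autosomal bases. Their length before trimming ranged from 501 to 2362 kb with a median of 720 kb, and 100 deserts were at least 1 Mb long.

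The study made ChIP-seq libraries of C2C12 cells, an established mouse myoblast line from strain C3H that fuses into contractile myotubes when serum is withdrawn. The myoblasts were near-confluent cultures in 10% serum. The myotubes were collected about 5 days after serum withdrawal and were freed of unfused cells by a light trypsin treatment. In both states 6 histone marks were profiled, giving 12 libraries with 1 library per mark and state. There is no replicate and no input library in these 12, so no difference between the cell states was tested. Every interval given covers counting error only or, for a median, how closely the deserts fix that median. Fewer marked cells cannot be told apart from less mark per cell. The cells are 1 line at passages 15 to 18, and cultures are not named in the labels.

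Gene deserts are known as late-replicating, AT-rich sequence that often lies beside genes for developmental regulators and cell adhesion molecules. Some hold enhancers that act on a border gene over long distances, whereas others carry little known regulatory sequence. H3K4me1 and H3K4me2 mark enhancers and the flanks of promoters, H3K4me3 marks promoters, and H3K27ac marks both when they are active. H3K36me3 is laid down over the bodies of transcribed genes. H3K27me3 is the product of Polycomb repressive complex 2, which silences developmental genes outside the lineage that uses them. In muscle, MyoD binds E-boxes, of which CAGCTG is the form it prefers, and MEF2, AP-1 and TEAD factors also bind at muscle enhancers.

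The sequences that carry the clearest isolated signal are shown first. They are the central 300 bases of the H3K27ac sites with most reads among those that had no other H3K27ac site within 50 kb. The site with most reads lay in the desert between Klf6 and Pitrm1 (chr13:6192175-6192474) and ranked first in both cell states. Of the next sites of the myoblasts, those beside Tox3 (chr8:92646531-92646830) and beside Satb1 (chr17:51722690-51722989) are shown, while the one between Gata6 and Rbbp8, with more reads than the Satb1 site, is described by its values only. Those of the myotubes lay in the desert between Rdh14 and Kcns3 (chr12:10521461-10521760) and in the one between Gm10710 and Sfrp2 (chr3:83103896-83104195). The site with the largest rise in myotubes lay in the desert that ends at Mef2c (chr13:83346685-83346984), and the one with the largest fall lay beside Tmem182 (chr1:41190736-41191035). All are from the NCBI build 37 sequence, forward strand, 5′ to 3′, and capitals mark matches on either strand to the E-boxes CAGCTG and CAGGTG, the AP-1 motif TGANTCA or the TEAD motif GGAATG.
Klf6 to Pitrm1 desert: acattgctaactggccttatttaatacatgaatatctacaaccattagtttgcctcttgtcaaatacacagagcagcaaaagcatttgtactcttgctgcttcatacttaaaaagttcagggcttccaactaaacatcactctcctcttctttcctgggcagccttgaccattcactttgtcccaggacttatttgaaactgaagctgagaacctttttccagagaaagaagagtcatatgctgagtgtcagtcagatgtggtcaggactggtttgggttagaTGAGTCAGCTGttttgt
Tox3 desert: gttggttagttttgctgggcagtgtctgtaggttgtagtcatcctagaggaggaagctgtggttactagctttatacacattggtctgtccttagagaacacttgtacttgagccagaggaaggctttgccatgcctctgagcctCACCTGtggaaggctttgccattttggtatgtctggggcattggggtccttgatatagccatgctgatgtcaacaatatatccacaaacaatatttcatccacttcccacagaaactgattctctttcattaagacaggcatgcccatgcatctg
Satb1 desert: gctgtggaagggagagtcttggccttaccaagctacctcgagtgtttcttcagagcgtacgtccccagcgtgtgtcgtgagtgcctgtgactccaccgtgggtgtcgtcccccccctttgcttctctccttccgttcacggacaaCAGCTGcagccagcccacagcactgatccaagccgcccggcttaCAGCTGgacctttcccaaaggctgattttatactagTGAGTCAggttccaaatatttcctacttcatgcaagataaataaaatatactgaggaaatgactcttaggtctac
Rdh14 to Kcns3 desert: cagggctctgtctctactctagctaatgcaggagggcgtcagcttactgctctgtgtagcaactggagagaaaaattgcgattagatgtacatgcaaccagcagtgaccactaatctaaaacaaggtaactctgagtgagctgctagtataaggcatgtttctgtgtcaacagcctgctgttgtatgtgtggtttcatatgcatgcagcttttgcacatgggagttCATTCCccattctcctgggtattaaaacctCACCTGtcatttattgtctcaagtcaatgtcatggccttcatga
Gm10710 to Sfrp2 desert: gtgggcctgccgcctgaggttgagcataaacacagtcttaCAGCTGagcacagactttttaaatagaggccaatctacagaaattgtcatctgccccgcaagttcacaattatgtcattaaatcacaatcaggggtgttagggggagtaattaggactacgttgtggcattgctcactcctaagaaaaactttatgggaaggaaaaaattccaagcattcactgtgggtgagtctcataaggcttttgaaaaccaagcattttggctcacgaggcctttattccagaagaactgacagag
Mef2c desert, largest rise: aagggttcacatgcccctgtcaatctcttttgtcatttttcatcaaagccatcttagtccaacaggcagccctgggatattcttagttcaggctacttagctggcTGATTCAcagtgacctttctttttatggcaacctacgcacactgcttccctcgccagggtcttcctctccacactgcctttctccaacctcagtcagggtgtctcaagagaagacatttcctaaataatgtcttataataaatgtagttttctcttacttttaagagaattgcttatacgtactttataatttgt
Tmem182 desert, largest fall: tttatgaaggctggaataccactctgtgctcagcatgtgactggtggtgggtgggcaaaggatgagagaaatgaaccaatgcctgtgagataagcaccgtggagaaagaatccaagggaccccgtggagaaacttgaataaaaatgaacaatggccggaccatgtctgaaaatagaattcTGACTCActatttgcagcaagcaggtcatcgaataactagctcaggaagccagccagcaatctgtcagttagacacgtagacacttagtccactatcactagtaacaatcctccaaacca
At the Klf6 to Pitrm1 site, shown around the centre of the myoblast peak, an AP-1 match at position 284 and a CAGCTG match at position 289 overlap. The 300 bases around the centre of the myotube peak there (chr13:6192119-6192418) hold no match. The Satb1 site holds 2 CAGCTG matches and 1 AP-1 match, and each of the sites with the largest rise and the largest fall holds 1 AP-1 match. These matches are descriptions of the letters and do not show binding.

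The libraries held between 1858771 and 7033100 uniquely aligned reads, of which 0.422% to 3.15% repeated a position and strand. The deserts received between 1.32 and 17.7 reads per 10 kb, against 7.64 to 28.7 over the autosomes. The shallowest library was H3K27ac of myoblasts, in which 46.0% of the 34921 desert windows of 10 kb had no read, against 9.83% in the deeper H3K27ac library of myotubes. The cell states were checked at marker promoters. At least 3-fold H3K4me3 over the autosomal mean was seen at 5 of 5 myoblast markers in myoblasts and 4 of 5 in myotubes, and at 2 and 6 of 6 myotube markers. Of 8 markers of other cell types, Cd34 alone passed in each state, at 7.13-fold and 3.01-fold, and Cd34 is also known from muscle progenitors. GC content was 38.6% in the deserts, 41.1% in the other intergenic sequence and 43.2% in gene bodies. Sequence that is unique at the read length of 34 bases made up 83.1% of the deserts and 85.6% of the autosomes.

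All 6 marks were below the autosomal mean in the deserts, in both cell states, and the depth of the depletion differed between marks. Levels are reads per base over the mean of the autosomes in the same library, given as the median of 444 deserts with its 95% interval over deserts. H3K4me2 was lowest in myoblasts and H3K36me3 in myotubes. H3K4me2 was at 0.0968-fold (0.0867 to 0.110) in myoblasts and 0.242-fold (0.229 to 0.259) in myotubes. H3K27ac was at 0.110-fold (0.0984 to 0.123) in myoblasts and 0.162-fold (0.154 to 0.173) in myotubes. H3K4me1 was at 0.122-fold (0.111 to 0.145) in myoblasts and 0.205-fold (0.186 to 0.220) in myotubes. These medians lay far below 1, with more signal in the myotube library for each mark.

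H3K36me3, the mark of transcribed bodies, was at 0.209-fold (0.202 to 0.219) in myoblasts and 0.135-fold (0.127 to 0.142) in myotubes. H3K4me3 was at 0.449-fold (0.434 to 0.459) in myoblasts and 0.440-fold (0.430 to 0.451) in myotubes. H3K27me3 was the highest, at 0.563-fold (0.541 to 0.599) in myoblasts and 0.494-fold (0.462 to 0.537) in myotubes. The Polycomb mark and H3K4me3 therefore lay nearer the genome mean than the remaining marks. The H3K4me3 reads were spread thinly. The variance of the window counts over their mean was 2.55 in myoblasts and 3.18 in myotubes for H3K4me3, but 13.0 and 43.4 for H3K27ac and 29.1 and 18.6 for H3K4me1. It was 14.1 and 9.11 for H3K4me2, 8.7 and 7.7 for H3K27me3 and 4.54 and 2.90 for H3K36me3. In myotubes H3K36me3 was thus spread at least as thinly as H3K4me3. These values were not adjusted for read depth, which differed between the libraries. A variance over mean of 1 would be reached by reads scattered at random.

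The deserts were also lower than shorter intergenic sequence, the 6369 intervals over 40 kb and under 500 kb that were trimmed in the same way. For H3K4me3 the summed reads per base were 0.785 of those of shorter intergenic sequence in myoblasts and 0.790 in myotubes. For H3K27me3 they were 0.645 and 0.610. For H3K27ac they were 0.357 and 0.427, and for H3K4me1 0.345 and 0.461. Gene bodies, by contrast, were above the mean for all 6 marks, from 1.08-fold for H3K27me3 in myoblasts to 1.91-fold for H3K36me3 in myotubes. H3K27me3 in the shorter intergenic sequence was at 0.992-fold in myoblasts and 0.949-fold in myotubes, so its depletion was seen in the long intervals.

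**Figure D1:**
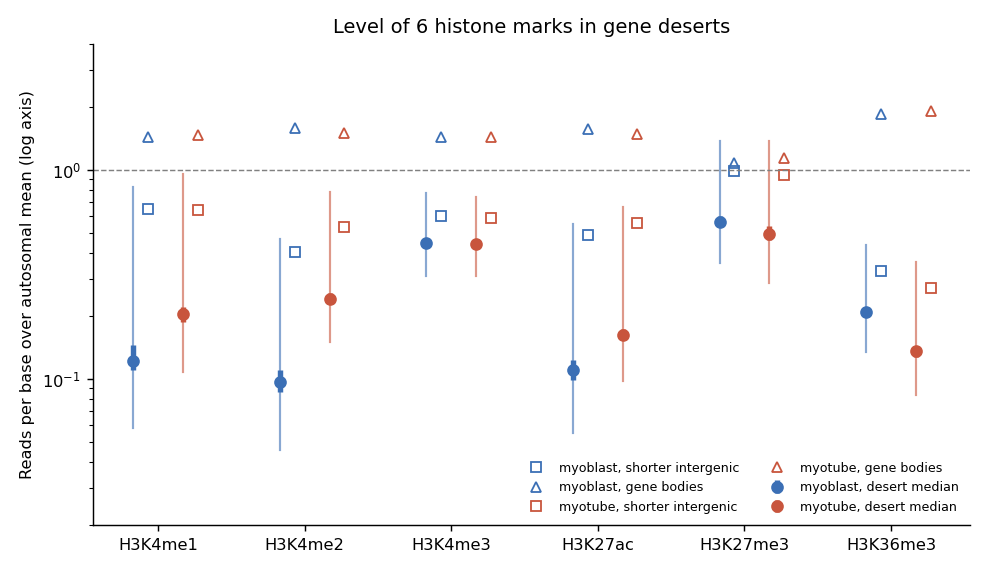
Level of the 6 marks in deserts, as reads per base over the autosomal mean on a log axis, for myoblasts and myotubes. Filled points are medians of 444 deserts with their 95% interval, thin lines run from the 5th to the 95th percentile of deserts, open squares are the shorter intergenic intervals and open triangles are gene bodies. Every desert median lies under the dashed line at 1, lowest for H3K4me2 in myoblasts at 0.0968 and highest for H3K27me3 in myoblasts at 0.563.

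Between the cell states the low background moved as a whole. The ratio of myotubes to myoblasts, each relative to its own autosomal mean, was above 1 in 431 of 444 deserts for H3K4me2 with a median of 2.49, in 395 for H3K4me1 with a median of 1.59 and in 391 for H3K27ac with a median of 1.48. It was below 1 in 421 deserts for H3K36me3 with a median of 0.659 and in 368 for H3K27me3 with a median of 0.868. H3K4me3 was divided, with 202 deserts higher and 242 lower and a median of 0.988. Such a shift of nearly all deserts in 1 direction also follows from a different share of reads outside the marked sites in each library, and with 1 library per state these cannot be told apart. For that reason counts of changed windows are given below under another scaling, in which the summed desert reads of the libraries are set equal.

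Base composition went with the level of every mark. Across the 444 deserts the Spearman correlation with GC content was between 0.50 and 0.71 over the 12 libraries, and that with unique sequence between 0.53 and 0.69. These are descriptions over regions that share the libraries and their base composition. When the deserts were divided into equal groups of 111 by GC content, H3K27me3 in myoblasts rose from 0.481-fold in the group with 35.7% to 37.1% GC to 0.523-fold, 0.674-fold and 0.988-fold in the group with 39.9% to 47.5% GC. In myotubes it rose from 0.389-fold to 0.996-fold. Levels of these groups are summed reads per base over the group, not medians over deserts. H3K27ac in myoblasts rose from 0.0887-fold to 0.401-fold, and the H3K4me1 peaks of myoblasts rose from 0.543 to 12.1 per Mb. The H3K27ac sum of the GC-richest group includes deserts far above it, such as that between Gadd45g and Diras2 at 3.14-fold in myoblasts. By summed reads the GC-richest group thus lay near the autosomal mean for H3K27me3 in both cell states. The part of base composition in read recovery was not tested.

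The 5 longest deserts were near the median of all deserts or below it for H3K27me3. The longest, 2362 kb between Olfm4 and the protocadherin gene Pcdh17 on chromosome 14, was at 0.542-fold in myoblasts and 0.443-fold in myotubes. The desert of 2235 kb between the potassium channel gene Kcnt2 and Cdc73 on chromosome 1 was at 0.474-fold and 0.389-fold. The desert of 2166 kb between D3Ertd751e and Pcdh10 on chromosome 3 was at 0.552-fold and 0.494-fold. None of these 3 held an H3K27me3 window at 2-fold the mean. They held between 0 and 4 H3K27ac sites in either state. The desert of 2132 kb between Nmbr and Cited2 on chromosome 10 was at 0.610-fold and 0.462-fold for H3K27me3, but it held 17 H3K27ac sites in myoblasts and 37 in myotubes. The desert of 1992 kb between Gm9934 and Gm9966 on chromosome 7 was at 0.429-fold and 0.332-fold.

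At the other extreme were deserts with almost no reads or with reads of every mark. Between Gm9257 and Gm10479 on chromosome 12, H3K27me3 was at 0.0336-fold in myoblasts and 0.0559-fold in myotubes. Between Gm3944 and Gm5784 on the same chromosome it was at 0.0600-fold and 0.0579-fold, and between BC048507 and Mtrr on chromosome 13 at 0.0812-fold and 0.0863-fold. These 3 deserts were under 0.1-fold in all 12 libraries, and only 16.9%, 18.6% and 32.5% of their bases were unique at the read length. In contrast, 6 deserts were above 0.5-fold in all 12 libraries. The desert beside Runx1, a haematopoietic and skeletal transcription factor gene, had no library under 0.866-fold. The desert between Pabpc6 and Qk, the gene of the RNA-binding protein Quaking, had none under 0.764-fold.

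Polycomb signal in the deserts was sparse and gathered in few of them. A 10 kb window was called at 2-fold the autosomal mean or above for H3K27me3 in 10.4% of all autosomal windows of myoblasts and 10.8% of those of myotubes. In the deserts 660 windows (1.89%) passed in myoblasts and 767 (2.20%) in myotubes. Both shares lay below the background. The windows were found in 101 and 119 deserts, and the 10 deserts with most windows held 34.4% and 37% of them. Of these windows 464 passed in both states, which is 70.3% of the myoblast windows and 60.5% of the myotube windows. Over the autosomes these shares were 81.5% and 78.6%.

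Runs of at least 3 such windows formed 72 domains in 39 deserts of myoblasts and 71 domains in 34 deserts of myotubes. They covered 2970 and 3370 kb, with a median length of 40 kb in both states. Within the myoblast domains the median H3K27me3 was 2.68-fold, while H3K27ac was at 0.305-fold, H3K4me1 at 0.498-fold and H3K36me3 at 0.365-fold. At or above the autosomal mean were 1 of the 72 domains for H3K27ac, 5 for H3K4me1, 3 for H3K4me2, 10 for H3K4me3 and 0 for H3K36me3. The highest level of any of the 72 for these 5 marks was 1.78-fold, for H3K4me1. Of the 72 myoblast domains 31 lay within 100 kb of a desert edge, and of the 71 myotube domains 36. The longest of the myoblasts, 80 kb, lay in the desert between Gm10710 and Sfrp2 on chromosome 3. The longest of the myotubes, 130 kb each, lay in the Thap1 to Zfp703 desert on chromosome 8 and the Kcnrg to Dleu7 desert on chromosome 14. The former was at 3.86-fold in myotubes and 3.03-fold in myoblasts.

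The desert between Arglu1 and Fam155a on chromosome 8 (chr8:8710538-9187237) had the highest H3K27me3 of all. It was at 2.40-fold in both cell states, and 34 of its 47 windows passed 2-fold in each. No H3K27ac site lay in it. The desert between Gm5449 and Drd1a, a dopamine receptor gene, was at 2.14-fold in myoblasts and 1.92-fold in myotubes with 25 and 23 of 48 windows. The desert between Kcnrg and Dleu7 was at 1.98-fold and 2.04-fold with 19 and 21 of 48 windows. These 3 were nearly the same in both states. In myotubes the next highest were the desert between Fam173b and the taste receptor gene Tas2r119, at 1.84-fold in myoblasts and 2.32-fold in myotubes with 18 and 34 of 51 windows, and the Thap1 to Zfp703 desert, at 1.90-fold and 2.08-fold with 22 and 31 of 69 windows. The Thap1 to Zfp703 desert also held 13 and 8 H3K27ac sites, so both kinds of signal lay in that interval.

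**Figure D2:**
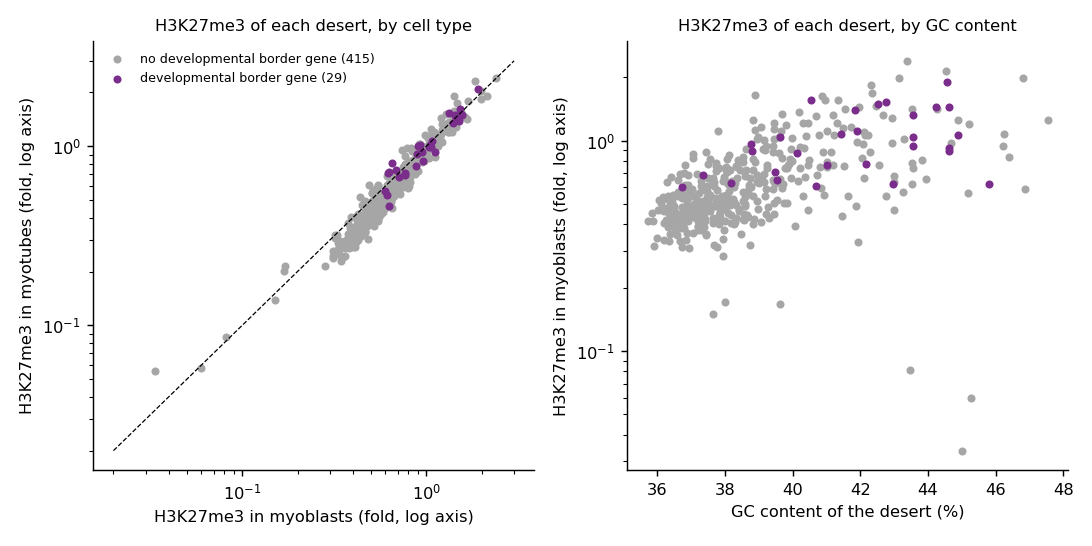
H3K27me3 of each of 444 deserts, as reads per base over the autosomal mean, on log axes for myoblasts against myotubes (left, dashed line at equal level) and for myoblasts against GC content in percent (right). Purple points are the 29 deserts with a developmental gene at a border and grey points the other 415. Most points lie just under the dashed line, the purple points lie in the upper part of the cloud, and H3K27me3 rises with GC content.

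Between the cell states, few H3K27me3 windows differed by 2-fold. Windows that held 30 reads or more, summed over both libraries, were compared after scaling by total autosomal reads, with 1 read added. Of 12256 desert windows with enough H3K27me3 reads, 132 (1.08%) were at least 2-fold higher in myotubes, against 4.85% of autosomal windows, and 472 (3.85%) were lower, against 2.08%. With the summed desert reads set equal, the counts became 259 higher (2.11%, background 7.22%) and 253 lower (2.06%, background 1.13%). With 5 reads added in place of 1, under the first scaling, 86 were higher (0.702%, background 3.73%) and 93 lower (0.759%, background 0.503%). The same change gave 18 higher and 48 lower windows for H3K36me3, described next. For H3K36me3, 19 of 537 windows (3.54%, background 8.84%) were higher and 123 (22.9%, background 9.09%) lower, which became 69 (12.8%, background 24.8%) and 45 (8.38%, background 2.83%) with desert reads set equal. For both marks the balance of the counts moved with the scaling and with the reads added. The share of higher windows lay below that of all autosomal windows and the share of lower windows above it under both scalings. Windows entered by reads summed over both libraries, so the library with more reads decided more of the entries. A desert window held 17.7 H3K27me3 reads on average in myoblasts and 11.3 in myotubes, and these shares are in part fixed by that choice.

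For H3K27ac, H3K4me1 and H3K4me2 a larger share of the windows compared changed in each direction than for H3K27me3. For H3K27ac, 235 of 562 windows (41.8%, background 22.5%) were at least 2-fold higher in myotubes and 86 (15.3%, background 20.9%) lower. With desert reads set equal these became 178 (31.7%, background 15.4%) and 133 (23.7%, background 35.0%). For H3K4me3, 54 of 334 windows (16.2%, background 13.5%) were higher and 6 (1.80%, background 4.19%) lower. For H3K4me1, 647 of 3087 windows (21.0%, background 16.1%) were higher and 285 (9.23%, background 11.7%) lower, but 380 (12.3%, background 9.06%) and 594 (19.2%, background 24.5%) with desert reads set equal. For H3K4me2, 348 of 1012 windows (34.4%, background 21.8%) were higher and 62 (6.13%, background 13.9%) lower, but 116 (11.5%, background 6.51%) and 315 (31.1%, background 49.0%) with desert reads set equal. The balance of the counts turned with the scaling for H3K4me1 and H3K4me2 and not for H3K27ac and H3K4me3. Beside all autosomal windows, the share of higher windows was the larger and that of lower windows the smaller in deserts for these 4 marks under both scalings. These windows too entered by summed reads, so their shares are in part fixed by how they were chosen. For H3K27ac a desert window held 1.32 reads on average in myoblasts and 4.58 in myotubes, so entry rested mainly on the myotube library.

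The deposited peaks were rarer in deserts than over the autosomes for every list. H3K4me1 had 1244 peaks in the deserts in myoblasts, or 3.54 per Mb against 27.9 over the autosomes, and 1016 in myotubes, or 2.89 against 38.6. H3K4me2 had 323 peaks (0.919 per Mb against 15.6) in myoblasts and 606 (1.72 against 23.4) in myotubes. H3K4me3 had 36 peaks (0.102 per Mb against 5.11) in myoblasts and 103 (0.293 against 7.31) in myotubes. H3K36me3 had 32 (0.0910 against 34.3) and 12 (0.0341 against 26.1). In myotubes H3K27ac had 823 peaks in the deserts (2.34 per Mb against 19.3) and H3K27me3 had 290 (0.825 against 5.37).

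In the myoblasts the lists deposited with the H3K27ac and H3K27me3 samples carried each other's signal. The 254 desert peaks of the H3K27ac sample had 5.92-fold H3K27me3 reads and 0.385-fold H3K27ac reads, and the 459 desert peaks of the H3K27me3 sample had 0.806-fold H3K27me3 and 22-fold H3K27ac. A myoblast peak of either list was therefore taken as an H3K27ac site where its H3K27ac fold was higher than its H3K27me3 fold. This held for 455 of the 459 peaks and for 0 of the 254.

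H3K27ac sites were few in the deserts and lay in clusters. Windows of 10 kb at 2-fold the autosomal mean or above for H3K27ac numbered 239 in the deserts of myoblasts (0.684%, background 9.77%) and 310 in those of myotubes (0.888%, background 9.78%). In myoblasts 455 sites lay in 108 deserts (24.3%), and in myotubes 823 sites lay in 128 deserts (28.8%), so most deserts held none. The 10 deserts with most sites held 42.9% of the myoblast sites and 40.6% of the myotube sites. The sites carried the marks of enhancers more than of promoters. In 2 kb around them, the median of the myoblast sites was 9.16-fold for H3K27ac, 7.88-fold for H3K4me1, 4.25-fold for H3K4me2, 2.23-fold for H3K4me3 and 0.722-fold for H3K27me3. That of the myotube sites was 8.0-fold for H3K27ac, 5.06-fold for H3K4me1, 4.63-fold for H3K4me2, 2.63-fold for H3K4me3 and 0.766-fold for H3K27me3.

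Compared with all autosomal H3K27ac sites, those of the deserts less often carried H3K4me3. At least 3-fold H3K4me3 was seen at 26.2% of desert sites against 59.2% of all sites in myoblasts, and at 43.5% against 64.2% in myotubes. At least 3-fold H3K36me3 was seen at 1.54% of desert sites against 23.8% in myoblasts. At least 3-fold H3K27me3 was rare at desert sites and at all sites, with 0% against 0.332% in myoblasts, where sites were assigned by H3K27ac over H3K27me3, and 0.243% against 0.572% in myotubes.

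Isolated sites, with no other H3K27ac site of the same state within 50 kb, numbered 82 in 74 deserts in myoblasts and 102 in 78 deserts in myotubes. This was 18.0% of the desert sites in myoblasts, against 7.99% of all autosomal sites, and 12.4% against 4.58% in myotubes. Isolated sites were weaker, with a median H3K27ac of 5.23-fold in myoblasts and 4.64-fold in myotubes against 10.5-fold and 9.03-fold for the sites in clusters.

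The strongest isolated site lay 323 kb from Klf6, an early response transcription factor gene, and 355 kb from Pitrm1. Its H3K27ac was 36.6-fold (95% interval 27.7 to 47.6, 56 reads) in myoblasts and 70.2-fold (62.1 to 79.0, 272 reads) in myotubes, with 9.80-fold and 11.3-fold H3K4me3. The Klf6 promoter itself, at the edge of the neighbouring desert, had 93.6-fold H3K27ac in myoblasts and 118-fold in myotubes. Both the site and the promoter were strongly acetylated in both states. The site 124 kb from Tox3 was at 29.4-fold (21.5 to 39.4) in myoblasts and at 6.19-fold in myotubes. The site 153 kb from Satb1, a chromatin organiser gene, was at 19-fold in myoblasts and 24.5-fold around the peak called in myotubes. There the H3K4me3 was 4.01-fold in myoblasts and 18.4-fold in myotubes.

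Of the remaining isolated sites named by rank, that between Gata6 and Rbbp8 fell from 22.2-fold in myoblasts to 1.81-fold in myotubes. The site 317 kb from Osr1, a mesodermal transcription factor gene, was at 18.3-fold and 22.7-fold. In myotubes the site between Rdh14 and Kcns3 was at 28.4-fold and had 32.7-fold in myoblasts. The site between Gm10710 and Sfrp2, the gene of a secreted Wnt modulator, was at 28.1-fold in myotubes and 6.54-fold in myoblasts. The site between Trps1 and Eif3h was at 22.4-fold in myotubes and 20.3-fold in myoblasts. Most of these sites were thus acetylated in both states.

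Over both states the sites merged to 727 intervals, of which 182 (25%) were called in both states, 164 (22.6%) in myoblasts only and 381 (52.4%) in myotubes only. Over the autosomes these shares were 44.1%, 19.5% and 36.4%. Of the 514 that held 20 reads or more, summed over both libraries, 266 (51.8%) were at least 2-fold higher in myotubes, against 31.7% of autosomal sites, and 88 (17.1%) were lower, against 25.8%. The median log2 ratio was 1.10 in the deserts and 0.02 over the autosomes. Since most merged sites entered through a myotube call, an excess of higher sites is in part fixed by how they were chosen. With desert reads set equal, 219 sites (42.6%) were higher and 116 (22.6%) lower, with a median log2 ratio of 0.65. The myoblast library was the shallower, with 7.64 against 19.4 reads per 10 kb, and the part of depth in these counts was not tested.

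The H3K4 marks moved with H3K27ac at these sites, which were chosen by their H3K27ac. At the 266 higher sites the median H3K4me1 was 2.63-fold in myoblasts and 5.45-fold in myotubes, H3K4me2 was 1.42-fold and 4.89-fold, and H3K4me3 was 0.891-fold and 2.63-fold. At the 88 lower sites H3K4me1 was 10.1-fold and 4.47-fold, H3K4me2 was 5.95-fold and 3.35-fold, and H3K4me3 was 2.23-fold and 1.69-fold. H3K36me3 was lower in myotubes at both sets, with 0.609-fold and 0.282-fold at the higher sites and 0.870-fold and 0.564-fold at the lower. These H3K36me3 medians rest on few reads. In 2 kb, 0.870-fold in myoblasts is 5 reads, and 0.564-fold and 0.282-fold in myotubes are 2 reads and 1 read. H3K27me3 stayed between 0.722-fold and 0.903-fold at the median of both sets in both states. The lower sites kept H3K4me1 above the mean, and the higher sites had some H3K4me1 in myoblasts already. At the 160 sites between, H3K4me1 was 7.13-fold in myoblasts and 6.22-fold in myotubes, and H3K4me2 was 4.82-fold and 5.28-fold. There H3K4me3 was 1.78-fold and 2.63-fold and H3K36me3 0.870-fold and 0.564-fold. Higher H3K4me3 and, on few reads, lower H3K36me3 in myotubes were thus also seen at sites without a 2-fold change in H3K27ac.

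**Figure D3:**
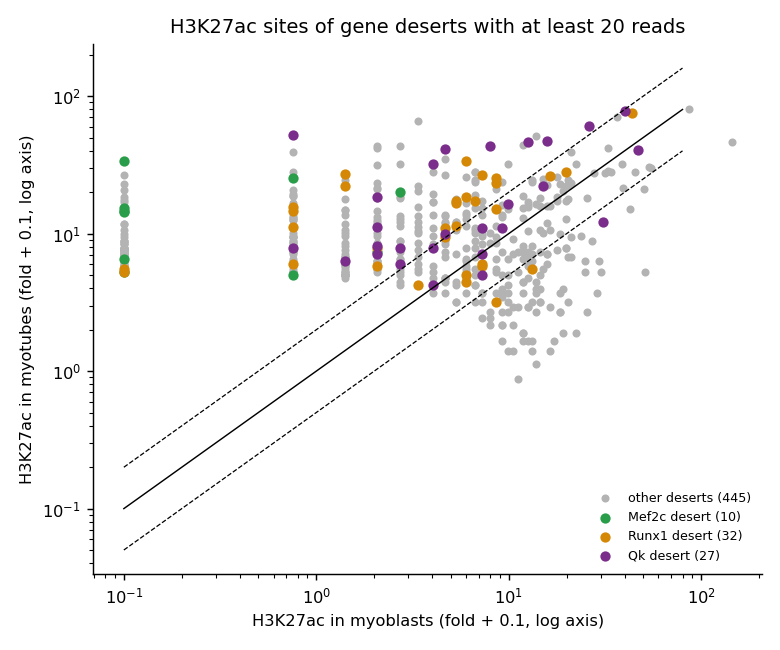
H3K27ac at the 514 desert sites with at least 20 reads, as fold over the autosomal mean in 2 kb plus 0.1, in myoblasts and in myotubes on log axes, with lines at equal level (solid) and at 2-fold (dashed). Coloured points are the 10 sites of the Mef2c desert, the 32 of the Runx1 desert and the 27 of the Qk desert, and grey points are sites of all other deserts. Of the points, 266 lie on or above a 2-fold rise by counts.

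The desert that ends at Mef2c, the gene of a transcription factor that drives muscle differentiation, gained its H3K27ac in myotubes. It is 1453 kb long, on chromosome 13, with Cetn3 on the far side. No H3K27ac site was called there in myoblasts and 25 were called in myotubes. Over the whole interval H3K27ac was at 0.110-fold in myoblasts and 0.546-fold in myotubes. The 14 merged sites held 9 reads in myoblasts and 621 in myotubes, and since all entered through myotube calls their ratio is no measure of the change. The largest rise of any desert site was here, 296 kb from Mef2c (chr13:83345594-83348076), with 0 reads in myoblasts and 130 in myotubes, which was 33.5-fold over the mean. H3K4me1 at this site went from 0.375-fold to 7.39-fold and H3K4me3 from 0.891-fold to 7.52-fold. The Mef2c promoter was taken at the start site with most H3K4me3 reads over both states, a choice that favours high H3K4me3. There H3K4me3 went from 0.446-fold to 33.1-fold and H3K27ac from 0 reads to 20.4-fold, while H3K27me3 went from 2.35-fold to 1.28-fold. The promoter and the desert moved in the same direction.

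The deserts with most merged sites were beside Runx1, beside Qk and between the stress-response gene Gadd45g and Diras2. The Runx1 desert held 38 merged sites with 343 reads in myoblasts and 1986 in myotubes. The Qk desert held 31 sites with 429 and 2426 reads. The desert between Gadd45g and Diras2 also held 31, with 613 and 1296 reads. These read counts are not scaled for depth, which was 7.64 reads per 10 kb of the autosomes in myoblasts and 19.4 in myotubes. Over the whole interval H3K27ac was at 2.48-fold and 5.64-fold in the Runx1 desert, at 2.22-fold and 4.78-fold in the Qk desert and at 3.14-fold and 2.36-fold between Gadd45g and Diras2. A site 57 kb from Qk went from 1 to 202 reads. Without these 3 deserts, an alternative chosen after seeing the data, 224 of 429 sites (52.2%) were higher and 79 (18.4%) lower.

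Other deserts rich in sites differed in direction, by H3K27ac over the whole interval. The 2 deserts between Nmbr and Cited2, a transcriptional coregulator gene, are divided by an annotated gene of another type. They were at 0.347-fold in myoblasts and 0.666-fold in myotubes and at 0.964-fold and 2.03-fold. The desert beside Ncam1, a cell adhesion gene of fusing myoblasts, was at 0.640-fold and 1.40-fold. The desert between Mc2r and 4930546C10Rik on chromosome 18 was at 0.396-fold and 1.46-fold. In the desert between Dusp10 and Hlx the levels were nearly equal, at 1.90-fold and 1.94-fold. They were lower in myotubes between Gata6 and Rbbp8, at 0.810-fold and 0.524-fold, and between Prickle1 and Adamts20, at 1.10-fold and 0.733-fold. Neighbouring sites within a desert share their library and are not replicates.

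Further large rises from 0 reads in myoblasts were seen 95 kb from Cdc73, a tumour suppressor gene, with 103 reads in myotubes, between Fam188a and Pter with 89 reads and 28 kb from the kinase gene Nuak1 with 80 reads. These sites entered through their myotube calls. The largest fall was 279 kb from Tmem182, a muscle membrane protein gene, with 17 reads in myoblasts and 3 in myotubes and a log2 ratio of -3.51. Falls of -3.48 were seen 287 kb from Zfp703 (21 and 4 reads), of -3.47 at the site 425 kb from Gata6 (34 and 7 reads) and of -3.46 at a site 53 kb from Dusp10 (25 and 5 reads). A further site, 287 kb from Tmem182, had -3.29 (26 and 6 reads). At all 5 falling sites H3K4me1 was lower in myotubes as well, as at the first Tmem182 site with 9.75-fold and 3.31-fold. The Tmem182 gene faces that desert with its 3′ end, and its promoter, 49.7 kb from the edge, went the other way, with H3K27ac of 1.31-fold in myoblasts and 31.5-fold in myotubes (2 and 122 reads) and H3K4me3 of 0 and 25.9-fold (0 and 69 reads).

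Motif matches in the central 300 bases were counted for the sites and, as background, for the centres of all desert windows. CAGCTG was found at 19.8% of myoblast sites and 21.0% of myotube sites, against 8.13% of window centres and 21.8% and 22% of all autosomal sites. CAGGTG was found at 17.1% and 16%, against 13.4% of window centres. TGANTCA was found at 19.1% (15.6 to 23) of myoblast sites and 14.9% of myotube sites, against 9.29% of window centres and 12.6% of all autosomal myoblast sites. GGAATG was found at 21.8% and 20.4%, against 16.4% of window centres. Of these motifs CAGCTG stood furthest above the desert background, without adjustment for GC content, at about the share seen in all H3K27ac sites.

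By direction, TGANTCA was found at 27.3% (18.3 to 37.8) of the 88 sites lower in myotubes, at 24.4% of the 160 sites between and at 13.2% of the 266 higher sites. The MEF2 motif was found at 12 of the 266 higher sites, or 4.51% (2.35 to 7.75), and at 1 of the 88 lower sites and 1 of the 160 others, against 0.785% of window centres. GC content of the sites was 47.5% in myoblasts and 44.8% in myotubes, above the 38.6% of window centres and below the 55.0% and 51.3% of all autosomal sites. Neither the motif shares beside window centres nor those by direction were adjusted for GC content.

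A few deserts held H3K4me3 or H3K36me3 peaks, although no gene is annotated there. The 36 H3K4me3 peaks of myoblasts lay in 30 deserts and the 103 of myotubes in 57, and 26 of 36 (72.2%) and 80 of 103 (77.7%) had at least 3-fold H3K27ac, against 94.4% and 90% of all autosomal H3K4me3 peaks. The highest in both states lay 62 kb from St3gal1 in the desert between St3gal1 and Zfat on chromosome 15 (chr15:67005865-67010876). It had 54.4-fold H3K4me3 with 306 reads and 85.1-fold H3K27ac in myoblasts, and 40.4-fold H3K4me3 in myotubes over the peak called there. The 3 H3K36me3 peaks with most reads in each state were in the same desert, at 15.2-fold, 15.6-fold and 12-fold in myoblasts and 16.3-fold, 12.2-fold and 14.1-fold in myotubes. A promoter mark and a transcription mark thus lay side by side within an interval without an annotated gene. The later RefSeq annotation, used only to list genes between the edge genes, places the long non-coding RNA gene 1700012I11Rik between St3gal1 and Zfat.

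The next H3K4me3 peaks of myoblasts lay between Btg1 and Dcn on chromosome 10 at 24.0-fold and between Klf6 and Pitrm1 at 17.1-fold. Those of myotubes lay between Fam188a and Pter on chromosome 2, with 8 reads in myoblasts and 158 in myotubes (1.71-fold and 28.5-fold), and between Man1a and D630037F22Rik on chromosome 10, with 5 and 122 reads (1.57-fold and 32.4-fold). These 2 were chosen by their myotube reads and counted over the peaks called there, which favours low counts in myoblasts. For 87 deserts the genes at both edges were found in the RefSeq annotation at a distance close to the desert length. In 81 of them that annotation lists at least 1 gene in between. A long non-coding RNA or protein-coding gene was listed in 21 of the 25 such deserts with an H3K4me3 peak and in 49 of the 62 without one. The emptiness of a desert thus depended on the annotation.

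Protein-coding genes stood within 100 kb of 462 of the 888 desert edges, and 432 genes did so in all. Genes of development and adhesion made up a larger share of them than of all 21418 protein-coding genes. Transcription factors of development made up 28 of 432 (6.48%, against 2.08% of all), secreted signals and guidance molecules 16 (3.7% against 0.691%) and adhesion genes 30 (6.94% against 0.588%). Olfactory, vomeronasal and taste receptors made up 2 (0.463% against 6.91%). The lists were chosen by family names with earlier results of these data known, and the shares are descriptions.

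The 28 developmental genes at the borders carried H3K4me3 more often than H3K27me3. Each promoter was taken at the start site with most H3K4me3 reads over both states, so this order is in part fixed by that choice. At least 3-fold H3K27me3 in 2 kb around the promoter was seen at 9 of 28 (32.1%) in myoblasts, against 42.2% of all genes of the list and 10.4% of all protein-coding genes. In myotubes it was seen at 1 of 28 (3.57%), against 22% of the list and 6.92% of all genes. H3K27me3 was lower in myotubes at 25 of the 28 (89.3%), against 80.9% of the whole list and 59.2% of all protein-coding genes. At least 3-fold H3K4me3 was seen at 19 of 28 in myoblasts and 21 of 28 in myotubes, against 53.9% of all genes in both states. The median H3K4me3 of the 28 was 16.5-fold in myoblasts and 15.8-fold in myotubes, against 3.57-fold and 3.38-fold for the whole list.

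Gata6, which specifies endoderm and heart, had the highest H3K27me3 of the border genes on this list in both states, at 9.93-fold (7.48 to 12.9) in myoblasts and 3.57-fold (1.95 to 6.00) in myotubes. It was the only one that passed in myotubes. Sox14, a factor of the nervous system, was at 7.95-fold and 1.53-fold. Pou4f1, a factor of sensory neurons, was at 6.5-fold and 0.766-fold, and its H3K4me3 was 5.79-fold and 20.3-fold. Skeletal muscle is not among the tissues these factors are best known for.

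Nkx6-1, a factor of pancreas and spinal cord, was at 5.60-fold and 2.30-fold for H3K27me3. Hand2, a factor of heart and limb, was at 5.42-fold and 2.04-fold. Irx4, a factor of the heart ventricle, was at 4.15-fold and 1.79-fold, and Sox6 at 3.25-fold and 2.30-fold. Among the 9 that passed in myoblasts, none had 3-fold H3K27ac, while 3 (Gata6, Pou4f1 and Sox2) also had 3-fold H3K4me3. Sox2 and Sall3, which complete the 9, were at 3.97-fold and 3.61-fold in myoblasts and at 1.02-fold and 0.766-fold in myotubes.

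The following border genes were chosen after their values were seen. High H3K27ac in both states was found at Runx1 with 51.7-fold and 114-fold and at Zfp703 with 77.9-fold and 48.2-fold. Lower H3K27ac in myotubes was found at Id2, an inhibitor of MyoD activity, with 34.7-fold and 8.26-fold, at Zfhx3 with 39.3-fold and 18.3-fold and at Ets1 with 37.9-fold and 21.2-fold. Satb1, beside its isolated site, had 1.78-fold H3K4me3 in myoblasts and 5.64-fold in myotubes. Of the 16 signalling genes 1 (6.25%) passed 3-fold H3K27me3 in each state, against 33.8% and 14.9% of all genes of that list. It was Fgf9, with 5.96-fold in myoblasts and 4.34-fold in myotubes. Inhba, which encodes an activin subunit, had 52.3-fold and 20.4-fold H3K27ac.

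Of the 30 adhesion genes 12 had 3-fold H3K4me3 in myoblasts and 9 in myotubes, against 34.1% and 31.0% of all genes of that list. In myoblasts 7 of the 30 (23.3%) had 3-fold H3K27ac and in myotubes 5 (16.7%), against 23% and 19.8% of the list. These shares lay near those of the whole list. Ncam1 had 51-fold and 45.9-fold H3K27ac, and the cadherin gene Cdh18 had 30.7-fold and 23.7-fold H3K4me3. Cdh9, Cdh10 and Pcdh9 had at most 1.5-fold H3K4me3 in either state. Pcdh20 was the only one of the 30 with 3-fold H3K27me3, at 3.07-fold and 3.06-fold, against 11.1% and 7.94% of the list.

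**Figure D4:**
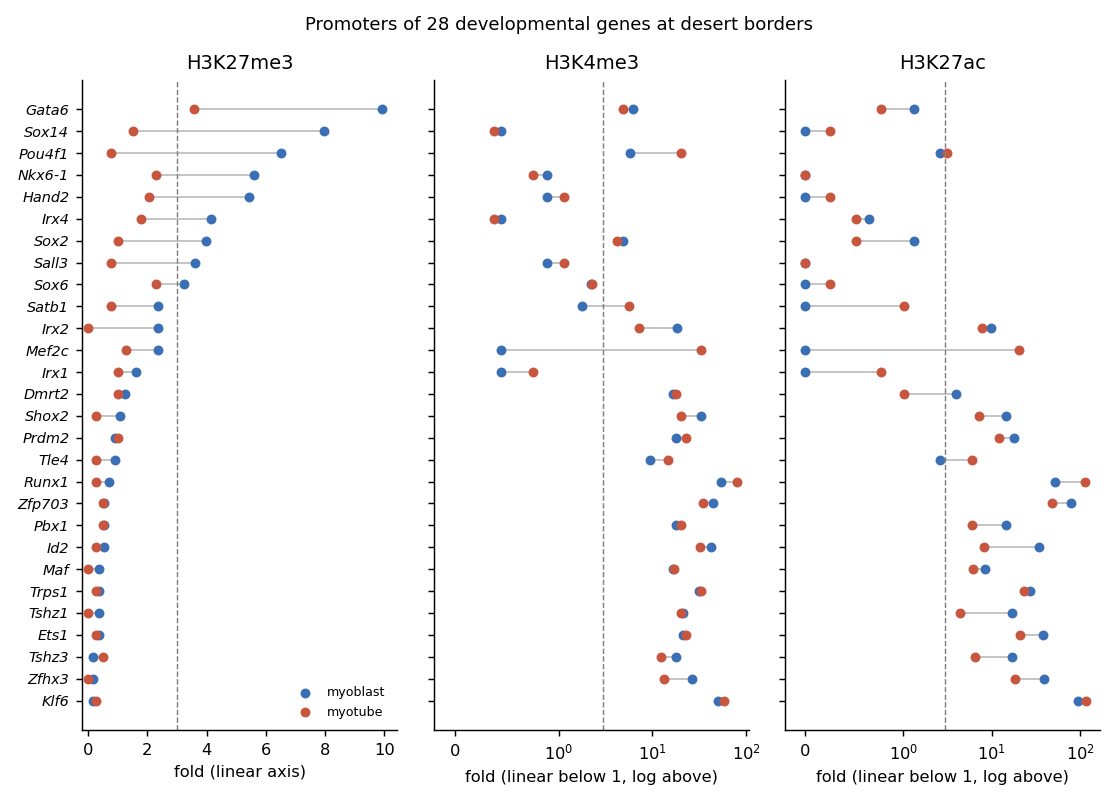
Promoter levels of the 28 developmental genes within 100 kb of a desert edge, as fold over the autosomal mean in 2 kb, for H3K27me3 (linear axis), H3K4me3 and H3K27ac (linear below 1, log above), in myoblasts and myotubes joined by a grey line. The dashed line marks 3-fold. For H3K27me3, 9 myoblast points and 1 myotube point lie past it, and the genes with most H3K27me3 have little H3K27ac.

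The 29 deserts with a developmental gene at a border carried more H3K27me3 than the other 415. The median was 0.946-fold (0.763 to 1.11) against 0.547-fold (0.525 to 0.573) in myoblasts and 0.933-fold (0.740 to 1.06) against 0.470-fold (0.451 to 0.504) in myotubes. Windows at 2-fold or above made up 7.42% against 1.55% in myoblasts and 8.66% against 1.80% in myotubes. Deserts share their library and are not replicates, so the intervals of the medians are descriptions and no test of this difference. These deserts also held more H3K4me1 peaks, with 13.1 against 2.95 per Mb in myoblasts and 10.1 against 2.45 in myotubes.

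GC content moved with this difference, with a median of 41.9% in the 29 deserts and 38.1% in the others. Within the 111 deserts richest in GC, 21 deserts with a developmental border gene were at a median of 1.06-fold and 90 others at 0.898-fold in myoblasts, and at 1.02-fold and 0.937-fold in myotubes. Among the 111 deserts next in GC content 6 such deserts were at 0.804-fold and 105 others at 0.629-fold in myoblasts, and at 0.818-fold and 0.549-fold in myotubes. The difference kept its direction within both sets and was smaller in the GC-richest one.

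The signal near a developmental gene was higher around the edge than deep in the desert. At the 30 edges with a developmental gene, H3K27me3 in myoblasts was 1.67-fold in the last 10 kb before the edge, 1.52-fold in the first 10 kb of the desert, 1.30-fold at 20 to 40 kb and 0.928-fold at 200 to 250 kb. In myotubes the same distances gave 1.40-fold, 1.32-fold, 1.31-fold and 0.935-fold. At the other 858 edges the values in myoblasts were 0.796-fold, 0.765-fold, 0.739-fold and 0.648-fold. H3K27me3 at developmental edges thus stayed above that of other edges to 250 kb inside.

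H3K27ac fell faster. At developmental edges of myoblasts it was 4.06-fold before the edge, 3.11-fold in the first 10 kb, 0.619-fold at 20 to 40 kb and 0.300-fold at 200 to 250 kb. In myotubes it was 4.76-fold, 2.32-fold, 0.586-fold and 0.345-fold, with 1.14-fold at 100 to 150 kb. At the other edges of myoblasts it was 0.805-fold before the edge and 0.385-fold in the first 10 kb.

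**Figure D5:**
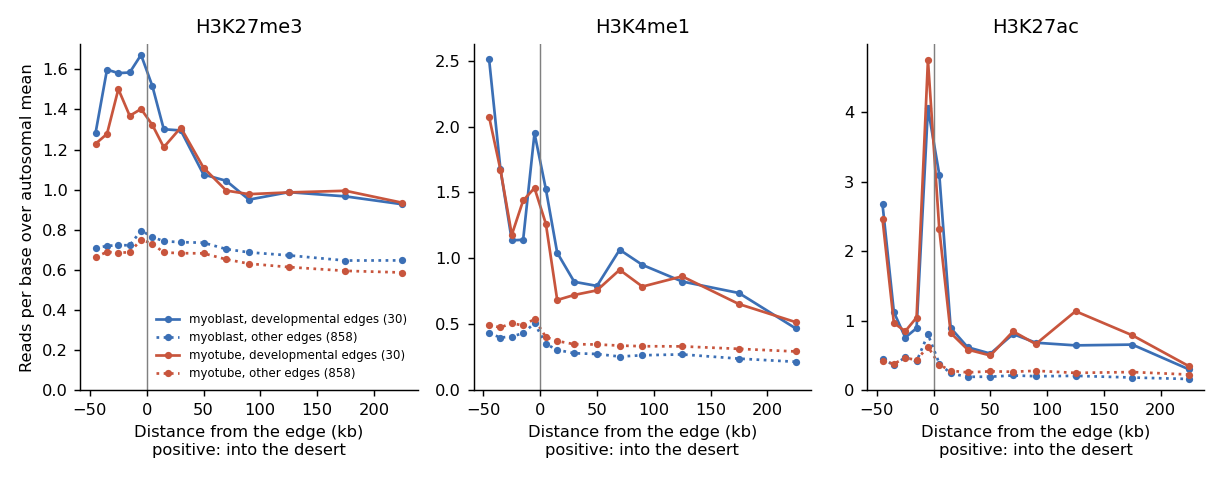
H3K27me3, H3K4me1 and H3K27ac by distance from the desert edge in kb (positive into the desert), as summed reads per base over the autosomal mean, in myoblasts and myotubes, for 30 edges with a developmental gene (solid lines) and 858 other edges (dotted lines). Developmental edges lie above other edges at every distance shown for H3K27me3, from 1.67-fold to 0.928-fold in myoblasts inside the last 10 kb and at 200 to 250 kb.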

How the data were processed

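The authors immunoprecipitated 6 histone marks from C2C12 myoblasts and myotubes, amplified the libraries for 15 PCR cycles, aligned the reads to mm9 with Mosaik and kept unique alignments. The deposited read files hold 1 line per read, each a count of 1. The deposited peak files hold the score that MACS wrote for each peak within its own list, with a lowest score of 50, and the MACS version and settings are not given in the sources used here.

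Reads were extended to 150 bp and their midpoints were counted per base of known sequence. Deserts were built from the NCBI build 37 genome with the GENCODE M1 annotation. Border genes were the nearest protein-coding genes within 100 kb of an untrimmed edge. Levels are folds over the autosomal mean in deserts, in 10 kb windows or in 2 kb around a site or a promoter, the latter at the start site with most H3K4me3 reads. Uniqueness was counted on 1 in 16 of all 34-base words. Merged H3K27ac sites joined peaks within 500 bp. Motifs were sought in the central 300 bases on both strands. Intervals are exact Poisson for a count, exact binomial for a share and order-statistic for a median over deserts, all at 95%. They cover counting error only or, for a median, how closely the deserts fix that median. With 1 library per group no test was made.

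Named items were the 5 longest deserts, the 3 highest and 3 lowest for H3K27me3 in each state, the 2 highest over all libraries, the 5 developmental border genes with most H3K27me3, the 5 strongest isolated H3K27ac sites, the 5 largest rises and falls, and the 3 H3K4me3 and H3K36me3 peaks with most reads. The deserts with most H3K27ac sites and some border genes were picked once their values were known. The deserts, gene lists and alternatives were chosen with earlier results of these data known. The counting was tested on simulated data. RefSeq genes came from an annotation on a later assembly. Its coordinates served only to list the genes between the genes at both edges of a desert. Deserts were left out of that count where the distance between these genes differed much from the length used here. Python 3.11.15, numpy 2.4.6, pandas 2.3.3, scipy 1.17.1, numba 0.67.0 and matplotlib 3.10.9 were used. All 12 samples were assigned to a group by their labels.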

Additional observations from a re-analysis of the deposited data

How the results depend on the processing

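Over 46 results and 169 alternative values, 118 moved by less than their counting interval or 1.5 times, and 51 moved by more. No single level or count has a sign to reverse, but with summed desert reads set equal the balance of the counts of higher against lower windows turned for H3K4me1, H3K4me2 and H3K36me3 and became nearly even for H3K27me3. Counting 1 read per position and strand, read starts without extension, a trim of 50 kb, splitting intervals at gaps (which gave the same 444 deserts) and leaving out deserts under 50% unique moved no desert level past its interval. The last of these, the count per unique 34-base word and leaving out the 3 deserts with most merged H3K27ac sites were chosen after seeing the data. Per unique word, H3K4me3 in myotubes was 0.455.

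In deserts of at least 1 Mb the levels in myoblasts were 0.0980 for H3K4me1, 0.0740 for H3K4me2, 0.422 for H3K4me3, 0.0906 for H3K27ac, 0.490 for H3K27me3 and 0.188 for H3K36me3. In myotubes they were 0.166, 0.214, 0.418, 0.145, 0.402 and 0.122 in the same order, all lower than over the 444 deserts. H3K27me3 of such deserts without a developmental border gene was 0.479 in myoblasts and 0.397 in myotubes.

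The share of H3K27me3 windows was 0.352% in myoblasts and 0.369% in myotubes at a 3-fold threshold, 2.34% and 2.66% in windows of 5 kb, and 1.90% in myotubes in windows of 20 kb. With a MACS score of at least 100, desert peaks in myoblasts numbered 581 for H3K4me1, 103 for H3K4me2, 9 for H3K4me3, 25 for the H3K27ac list, 216 for the H3K27me3 list and 12 for H3K36me3, and in myotubes 123, 207, 38, 451, 4 and 3. With the myoblast lists exchanged, H3K27ac had 459 and H3K27me3 254. Isolated H3K27ac sites numbered 139 and 163 when 20 kb was enough.

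At a 5-fold threshold 5 developmental border genes passed H3K27me3 in myoblasts and 0 in myotubes, and at 2-fold 4 passed in myotubes. With summed desert reads set equal, windows higher and lower in myotubes numbered 380 and 594 for H3K4me1, 116 and 315 for H3K4me2, 259 and 253 for H3K27me3 and 69 and 45 for H3K36me3, and 133 were lower for H3K27ac. With 5 reads added, H3K27me3 had 86 higher and 93 lower and H3K36me3 had 48 lower. The cause of these moves was not tested.

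No paired analysis was possible because each group has 1 library. Counting bases that are not repeat-masked was not run, since the reference used here does not mark repeats. Depth limits the myoblast H3K27ac library most, with 1.32 reads per 10 kb of desert.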
